A study of Mus musculus with 9 samples.

Results

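Histone and DNA methylation regulators, here 44 genes of 49603 RefSeq mouse genes, were examined for chromatin retrieved with probes against the long noncoding RNA Gm4665. They comprise Polycomb and H3K27 enzymes, enzymes of H3K4, H3K9 and H3K36 methylation, the DNA methylation machinery, deacetylases, cohesin with CTCF, and chromatin remodellers. Each gene was taken with 2 kb on either side, and every deposited interval that overlapped this window was assigned to it. This gave 36 of 38711 intervals captured with Gm4665 probes and 8 of 9448 intervals captured with LacZ probes, the control. The material was germ cells isolated from testis of the ICR strain, wild type and 35 days after birth, then cross-linked and sonicated, and the same strain, age and tissue apply to all 9 samples. There were 3 samples with Gm4665 probes, 3 with LacZ probes and 3 of input. The sample titles call the captured RNA LncRNA-20, while the protocols name Gm4665 for every sample, so the control is known from its titles and from the headers of the deposited list. Whether replicates came from separate animals is not stated, so the spread between them may be technical.

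Histone methylation marks divide the genome into active and silent states. Polycomb complexes place H3K27 methylation and H2A ubiquitin on silent developmental genes, H3K4 methyltransferases act at promoters and enhancers, and H3K9 methyltransferases build silent chromatin and hold transposons in check. DNA methylation is laid down anew in the male germ line before birth and is copied at each later division, and Tet enzymes oxidise it. Spermatids later exchange most histones for protamines. A long noncoding RNA that contacts chromatin can be mapped by capturing the RNA with complementary probes and sequencing the DNA that comes with it. The value given for an interval is the authors' fold enrichment of captured DNA over input, with 1 value for each replicate. The sources used here do not say how the input at each interval entered its fold. Unrelated intervals can share exactly the same fold, such as 8.93662 at Eed and Hdac1 in Gm4665 replicate 1.

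The lists were made separately, so a fold is described only against its own list. Mean fold had a median of 9.99 over all Gm4665 intervals and 14.1 over all LacZ intervals. LacZ replicate 1 had the highest fold of the 3 replicates in 95.9% of LacZ intervals, while in the Gm4665 list replicate 1 was highest in 56.3%. Library totals were not used here. The deposited pileup, the read coverage at an interval's summit, ranged from 15 at Kmt2a to 168 at Kdm6b over the 36 intervals, and the header does not say for which replicate. Eed and an Hdac1 interval, both with a pileup of 28, had the same fold in replicate 1 but not in replicates 2 and 3. The same held at a Setdb2 and an Hdac1 interval with a pileup of 16. Whether the pileup is that of replicate 1 was not tested. Fold values come from all isolated germ cells together, so strong contact in few cells and weak contact in many cannot be told apart. The files hold DNA enrichment and no expression, so the labelled cell type was not checked against markers.

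Promoters under or next to an interval are shown first, since the study's stated interest is in regulatory regions. RefSeq (GRCm38.p6) lists promoter windows, 250 bases before to 50 after a start site, for 38 of the 44 genes. None of these 38 genes had a Gm4665 interval on a listed window, against 1.76% of all 17492 protein-coding genes with such a window. A LacZ interval covered the window of 1 of the 38 genes, Suv39h2, against 0.8% of protein-coding genes. The Gm4665 interval closest to a listed start was at Tet2, 58 bases past the edge of the window. Within the Dnmt3a gene, an interval covered 176 of 300 bases of the promoter window of Dnmt3aos, an antisense noncoding RNA gene, which is not one of the 44 genes and was picked out after its position was seen. The windows read 5′ to 3′, all on the minus strand, with the bases inside a deposited interval in capitals.
Suv39h2 at chr2:3474937-3475236: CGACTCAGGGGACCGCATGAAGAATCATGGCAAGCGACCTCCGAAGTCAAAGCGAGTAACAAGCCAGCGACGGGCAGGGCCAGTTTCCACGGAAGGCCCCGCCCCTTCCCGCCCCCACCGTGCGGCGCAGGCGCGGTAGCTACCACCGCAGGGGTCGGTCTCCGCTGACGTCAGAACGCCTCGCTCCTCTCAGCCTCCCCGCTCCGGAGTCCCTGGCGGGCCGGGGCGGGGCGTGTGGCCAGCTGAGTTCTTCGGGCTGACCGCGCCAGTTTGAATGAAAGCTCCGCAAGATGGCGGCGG
Dnmt3aos at chr12:3862195-3862494: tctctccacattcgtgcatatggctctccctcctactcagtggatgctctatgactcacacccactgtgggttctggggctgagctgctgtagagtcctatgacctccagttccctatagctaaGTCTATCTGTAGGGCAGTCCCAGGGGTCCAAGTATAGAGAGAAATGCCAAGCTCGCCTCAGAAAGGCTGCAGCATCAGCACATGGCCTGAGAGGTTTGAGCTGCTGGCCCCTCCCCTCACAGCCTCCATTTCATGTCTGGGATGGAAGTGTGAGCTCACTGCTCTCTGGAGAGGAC
Tet2 at chr3:133544341-133544640: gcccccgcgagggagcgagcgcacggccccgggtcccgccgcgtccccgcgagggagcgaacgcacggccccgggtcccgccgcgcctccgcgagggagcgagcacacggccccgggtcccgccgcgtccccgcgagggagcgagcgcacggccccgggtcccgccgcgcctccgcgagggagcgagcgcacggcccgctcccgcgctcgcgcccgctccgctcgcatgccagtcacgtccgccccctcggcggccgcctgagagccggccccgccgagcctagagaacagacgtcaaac
The Suv39h2 window is in capitals throughout and belongs to the control list. In the Dnmt3aos window the capitals run through the start site to the end of the window. The Tet2 window has none.

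These windows also differ in base composition. Of the 300 bases, G and C make up 68.3% at Suv39h2, 81.3% at Tet2 and 54.7% at Dnmt3aos, and the CG dinucleotide occurs 33, 57 and 2 times. Over the 49 windows of the 38 genes, the median GC content was 68.3% and the median number of CG dinucleotides 30, against 56.3% and 13 over 21263 windows of protein-coding genes. The GC box GGGCGG, read on both strands and with overlapping matches counted, occurred in 40 of the 49 windows and in 46.2% of all windows. The CCAAT box, CCAAT on both strands, occurred in 15 of the 49 and in 38.2% of all windows. The GC box occurred 3 times at Suv39h2, 1 time at Tet2 and 0 times at Dnmt3aos. The window under the control interval at Suv39h2 was GC-rich, as most windows of the regulators were, and the one reached by a Gm4665 interval at Dnmt3aos had few CG dinucleotides.

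Gm4665 intervals lay in or near 25 of the 44 genes, 56.8%, against 39.3% of all 21779 protein-coding genes. LacZ intervals lay in or near 7 of 44, 15.9%, against 16.9%. Both kinds lay at 4 genes, Kmt2c, Kdm4d, Tet3 and Chd4, and 16 genes had neither. The shares of all protein-coding genes with both or neither were not computed, so these counts only describe the regulators. The regulators are longer than most genes, with a median of 36.7 kb against 17.2 kb for protein-coding genes, and longer protein-coding genes held an interval more often. Among the regulators themselves, the median length was 34.6 kb with a Gm4665 interval and 41.0 kb without. Among genes under 20 kb, 3 of 8 regulators had a Gm4665 interval, against 19.1% of protein-coding genes of that length. Between 20 and 60 kb the count was 14 of 24, against 48.7%. Over 60 kb it was 8 of 12, against 83.4%. For LacZ intervals the counts in these 3 length classes were 1 of 8, 3 of 24 and 3 of 12, against 6.3%, 17.3% and 46.1%. Per length of window, Gm4665 intervals numbered 15.5 per Mb at the regulators and 16.5 per Mb at all protein-coding genes, and LacZ intervals 3.44 and 4.57 per Mb. The share of regulators with a Gm4665 interval was thus above the background for shorter genes and below it for long ones, over few genes in each length class, and the density of intervals was close to that of other genes.

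**Figure D1:**
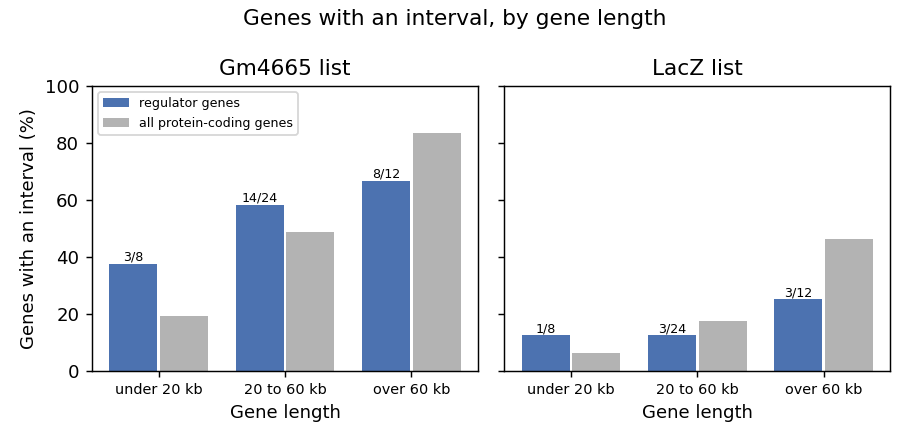
Percentage of genes with an interval, vertical axis, for genes of 3 length classes, in the Gm4665 list on the left and the LacZ list on the right. Blue bars are the 44 regulators, with counts above them, and grey bars all protein-coding genes; grey bars rise with gene length, as do the blue bars of the Gm4665 list, while in the LacZ list the blue bars under 60 kb are level (1 of 8 and 3 of 24); over 60 kb the regulators (8 of 12 and 3 of 12) lie below the grey bars (83.4% and 46.1%).

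Polycomb repressive complex 2 places methyl groups on H3K27, and both of its alternative catalytic subunits had a Gm4665 interval. Ezh2, on chromosome 6, had folds of 19.1, 11.9 and 19.3 in replicates 1, 2 and 3, from 47557464 to 47558352 in the interior of the gene (mean 16.8 ± 4.22, SD, n = 3). Ezh1, on chromosome 11, had 14.7, 11.7 and 7.65 from 101193002 to 101194042, 1887 bp inside its 3′ end (mean 11.3 ± 3.54, SD, n = 3). Eed, the subunit that binds methylated H3K27, had a weaker interval with 8.94, 4.08 and 7.81, and Suz12, the scaffold subunit, had none. Of these 4 genes 3 had an interval, where 48.7% of protein-coding genes of 20 to 60 kb and 83.4% of longer ones have one. The replicate ranges of Ezh2 and Ezh1 overlapped.

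Polycomb repressive complex 1 ubiquitinates H2A. Bmi1, which encodes a subunit needed for stem cell self-renewal, had folds of 29.0, 23.1 and 30.8 on chromosome 2 from 18679771 to 18680938, 2753 bp downstream of its listed start (mean 27.7 ± 4.03, SD, n = 3). This was higher than 92.1% of Gm4665 intervals. Rnf2, the catalytic subunit, had 13.7, 18.4 and 8.97 from 151480613 to 151481375 on chromosome 1. Cbx2, a reader of methylated H3K27 known for its part in male sex determination, had 10.4, 5.31 and 8.50 from 119022990 to 119023480 on chromosome 11. The Cbx2 interval crossed the lower end of the gene by 29 bp and also overlapped the lncRNA gene Gm35829. Ring1, the paralog of Rnf2, had none in either list.

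The demethylases that remove H3K27 methylation differed from each other. Kdm6b, on chromosome 11, had folds of 46.7, 40.8 and 35.4 from 69402831 to 69404897 (mean 41.0 ± 5.68, SD, n = 3), the highest mean of all 36 intervals and higher than 97.6% of the Gm4665 list. This interval was 2067 bp wide and lay 4323 bp inside the lower end of the gene. Kdm6a, its paralog on chromosome X, had none. In all, 7 of the 10 Polycomb and H3K27 genes had 1 Gm4665 interval each, against 39.3% of protein-coding genes, and 0 of the 10 had a LacZ interval, against 16.9%. The median length of the class was 29.0 kb, and 48.7% of protein-coding genes of 20 to 60 kb have a Gm4665 interval. At 17.4 Gm4665 intervals per Mb, the class was close to the 16.5 per Mb of all protein-coding genes.

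H3K4 enzymes had Gm4665 intervals of modest fold. Kmt2c, a methyltransferase that acts at enhancers, had 2 in 227 kb. The stronger, from 25432161 to 25432739 on chromosome 5, had folds of 9.49, 17.0 and 16.4 (mean 14.3 ± 4.19, SD, n = 3), and the other, from 25292272 to 25292764, had 9.55, 8.84 and 5.52. Both lay in the interior of the gene, and in only the first were replicates 2 and 3 above replicate 1. Setd1a, which encodes a methyltransferase of the COMPASS family, had 8.22, 7.04 and 13.5 from 127782942 to 127783275 on chromosome 7.

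Kmt2b, a methyltransferase required in germ cells, had folds of 6.74, 11.8 and 8.21 on chromosome 7 from 30573497 to 30574125. At Kmt2a, its paralog, an interval on chromosome 9 from 44826310 to 44826574 had 5.46, 5.09 and 9.87. Kdm5b, an H3K4 demethylase, had 2 intervals on chromosome 1 with mean folds of 8.74 ± 0.558 and 6.84 ± 0.278 (SD, n = 3 each), both toward the 3′ end of the gene. Apart from the first Kmt2c interval, these 7 intervals at 5 of 7 genes had mean folds below the list's median of 9.99. Of protein-coding genes, 48.7% of those of 20 to 60 kb and 83.4% of longer ones have an interval. The class had 12.9 intervals per Mb, against 16.5 at all protein-coding genes. Kmt2d, the paralog of Kmt2c, had none in either list, and Kdm1a, the demethylase LSD1, had none with Gm4665 probes.

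Among the H3K9 genes, 1 interval stood above the others. Setdb1, a methyltransferase that silences transposons together with Trim28, had folds of 40.1, 36.4 and 40.3 on chromosome 3 from 95354232 to 95355411 (mean 38.9 ± 2.22, SD, n = 3). It lay inside the gene, 1791 bp downstream of the listed start, and was higher than 97.1% of the Gm4665 list. Its 3 folds did not overlap those of any other H3K9 gene. Its paralog Setdb2 had 2 intervals on chromosome 14, 449 bp apart, with 10.9, 11.2 and 9.87 from 59428208 to 59428738 and 5.80, 3.35 and 7.40 from 59429187 to 59429718. RefSeq places the gene Gm45935 over the same bases.

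Suv39h1, which methylates H3K9 in pericentric heterochromatin and lies on chromosome X, had folds of 6.82, 4.76 and 8.22 from 8072481 to 8072791, 1570 bp downstream of a listed start. Kdm4d, an H3K9 demethylase expressed in testis, had 7.41, 7.54 and 4.83 from 14464290 to 14464672 on chromosome 9, 1742 bp inside its 3′ end. Each of these folds was below the median of its replicate over the whole list (11.4, 8.50 and 10.3). Suv39h2, the paralog of Suv39h1 known for its expression in testis, and Ehmt1 had LacZ intervals only. Ehmt2, the partner of Ehmt1, and Trim28, the corepressor that recruits Setdb1, had none in either list, nor did Setd2, the H3K36 methyltransferase of transcribed genes. Of the 8 H3K9 genes, 4 had a Gm4665 interval, against 39.3% of protein-coding genes, and 3 had a LacZ interval, against 16.9%. The median length of the class was 26.4 kb, and 48.7% of protein-coding genes of 20 to 60 kb have a Gm4665 interval.

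The de novo DNA methyltransferase gene Dnmt3a, on chromosome 12, held 5 Gm4665 intervals, the most of any of the 44 genes. The strongest lay outside the annotated gene, from 3797962 to 3800052, 1507 bp before its 5′ end. The folds of this interval were 47.7, 37.1 and 29.7 in replicates 1, 2 and 3 (mean 38.2 ± 9.05, SD, n = 3). The second, from 3860873 to 3862370, had 27.5, 22.1 and 25.1 (mean 24.9 ± 2.73, SD, n = 3) and is the one that reaches the Dnmt3aos promoter window shown above. The other 3, in the first 50% of the gene, had mean folds of 7.71, 6.41 and 6.20, all below the list's median. Dnmt3b, its de novo paralog, and Dnmt3l, their catalytically inactive cofactor in germ cells, had none.

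Dnmt1, which copies methylation after replication, had folds of 19.7, 8.57 and 12.4 on chromosome 9 from 20930185 to 20931021 (mean 13.5 ± 5.65, SD, n = 3). Uhrf1, which brings Dnmt1 to newly copied DNA, had none. All 3 Tet genes, whose products oxidise methylcytosine, had at least 1 interval. Each is longer than 60 kb, and 83.4% of protein-coding genes of that length have one. At Tet3, an interval on chromosome 6 from 83424657 to 83425539 had 19.3, 15.9 and 18.5 (mean 17.9 ± 1.79, SD, n = 3).

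Tet2 had folds of 21.8, 14.1 and 10.6 on chromosome 3 from 133543681 to 133544282, 108 bp downstream of the listed start (mean 15.5 ± 5.76, SD, n = 3). Tet1 had 2 on chromosome 10, with 10.8, 9.52 and 11.0 from 62840058 to 62840415 and 8.87, 5.10 and 8.22 from 62882001 to 62882356. The ranges of Tet3, Tet2 and the first Tet1 interval overlapped between Tet3 and Tet2 and between Tet2 and Tet1, but not between Tet3 and Tet1. In all, 10 intervals lay at 5 of 8 DNA methylation genes, against 39.3% of protein-coding genes with an interval. The median length of the class was 67.1 kb. Among protein-coding genes, 48.7% of those of 20 to 60 kb and 83.4% of longer ones have an interval. The class had 18.6 intervals per Mb, close to the 16.5 per Mb of all protein-coding genes.

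Class I deacetylases remove acetyl groups from histones, and the paralogs Hdac1 and Hdac2 showed different patterns. Hdac2, on chromosome 10, had 1 interval with folds of 44.1, 25.0 and 25.2 from 36975847 to 36976901, 1303 bp downstream of its listed start (mean 31.4 ± 10.9, SD, n = 3). Replicate 1 was well above the other replicates, and the mean without it was 25.1. Hdac1, on chromosome 4, had 4 intervals between 129522461 and 129538119 with mean folds of 6.08, 7.24, 6.23 and 7.75, all weak and all inside the gene. Every replicate fold at Hdac2 was above every replicate fold at Hdac1, whose highest was 8.94. Hdac3 and Sirt1, a sirtuin that uses NAD, had none in either list. The deacetylases had 5 intervals, 4 of them at Hdac1, at 2 of 4 genes, against 39.3% of protein-coding genes. Of protein-coding genes of 20 to 60 kb, 48.7% have one. Over 0.108 Mb of window the 5 intervals made 46.2 per Mb, the highest of the classes, against 16.5 at all protein-coding genes. The H3K4, H3K9, cohesin and remodeller genes had 12.9, 15.3, 7.42 and 5.37 per Mb.

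Cohesin holds sister chromatids together and forms loops that CTCF bounds. Of Rad21, Smc3 and Ctcf, Rad21 alone had a Gm4665 interval. It lay on chromosome 15 from 51994898 to 51995664, 1360 bp past the upper end of the gene, with folds of 19.9, 13.3 and 23.4 (mean 18.9 ± 5.16, SD, n = 3). RefSeq places the protein-coding gene Gm52217 over the same bases, so the assignment to Rad21 is not unique. Among the remodellers, the nucleosome remodelling gene Chd4 had 10.8, 8.98 and 13.1 on chromosome 6 from 125117824 to 125118667 (mean 11.0 ± 2.07, SD, n = 3). Smarca4, the ATPase of the SWI/SNF complex, and Chd5, which acts during histone removal in spermatids, had none.

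**Figure D2:**
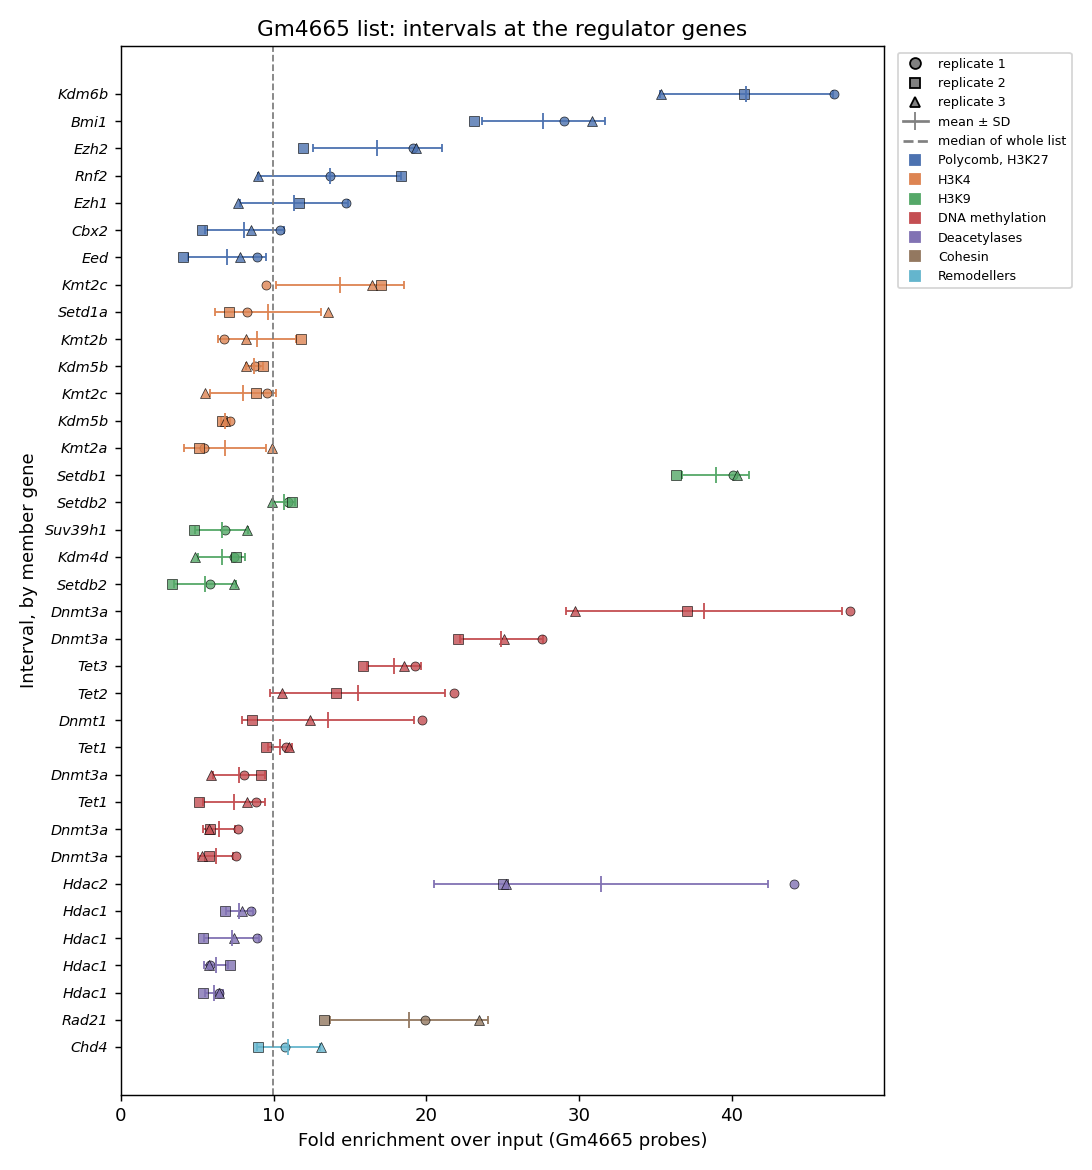
Fold enrichment over input, horizontal axis, of the 36 Gm4665 intervals at 25 regulator genes, grouped by class; circles, squares and triangles are replicates 1, 2 and 3, vertical ticks with bars the mean ± SD (n = 3), and the dashed line the median mean fold of the whole list, 9.99. Kdm6b, Setdb1, Hdac2, Bmi1 and the 2 strongest intervals of Dnmt3a lie to the right with every replicate above 20, and 19 of 36 intervals have a mean left of the line.

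By mean fold the order began with Kdm6b, Setdb1, Dnmt3a, Hdac2 and Bmi1, followed by the second interval of Dnmt3a, Rad21 and Tet3. In all 35 pairs of neighbours in the order of the 36 intervals, the replicate ranges overlapped. Compared within each replicate, 3 of these pairs kept their order in all 3: the strongest Dnmt3a interval over Hdac2, Bmi1 over the second Dnmt3a interval, and that one over Rad21. The leading position rested on replicate 1: without it, Setdb1 had a mean of 38.4 and Kdm6b 38.1. These first 5 intervals, at 5 of 44 genes (11.4%), were in the highest 10% of the list, against 7.37% of protein-coding genes with an interval that high. Of all 36, 17 (47.2%) were above the median of the list. The coefficient of variation between replicates, the SD as a percentage of the mean, had a median of 24.1% at these intervals and 21.9% over the whole list. The strength of the 36 intervals thus spread around the middle of the list, with a few near its top.

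Width went with fold. Interval width ran from 265 bp at Kmt2a to 2091 bp at Dnmt3a, and Spearman's rho between width and mean fold was 0.82 over the 36 intervals and 0.81 over all Gm4665 intervals. These intervals share the same libraries and were called on the same signal, so the values describe the list.

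Position within the genes was known best where RefSeq promoter windows give the strand. Of 36 Gm4665 intervals, 33 lay wholly inside the gene, 1 crossed an end and 2 lay in the flanks. Within 2 kb of a gene end there were 9 intervals at 9 genes (20.5% of 44), against 14.2% of protein-coding genes: Ezh1, Cbx2, Setdb1, Suv39h1, Kdm4d, Dnmt3a, Tet2, Hdac2 and Rad21. With strand known, 16 of 28 intervals had their midpoint before 50% of the gene's length. Those within 2500 bp of a listed start numbered 4, at Tet2, Hdac2, Suv39h1 and Setdb1, all downstream of it. The same shares over all Gm4665 intervals were not computed, so these counts show nothing particular to the regulators.

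**Figure D3:**
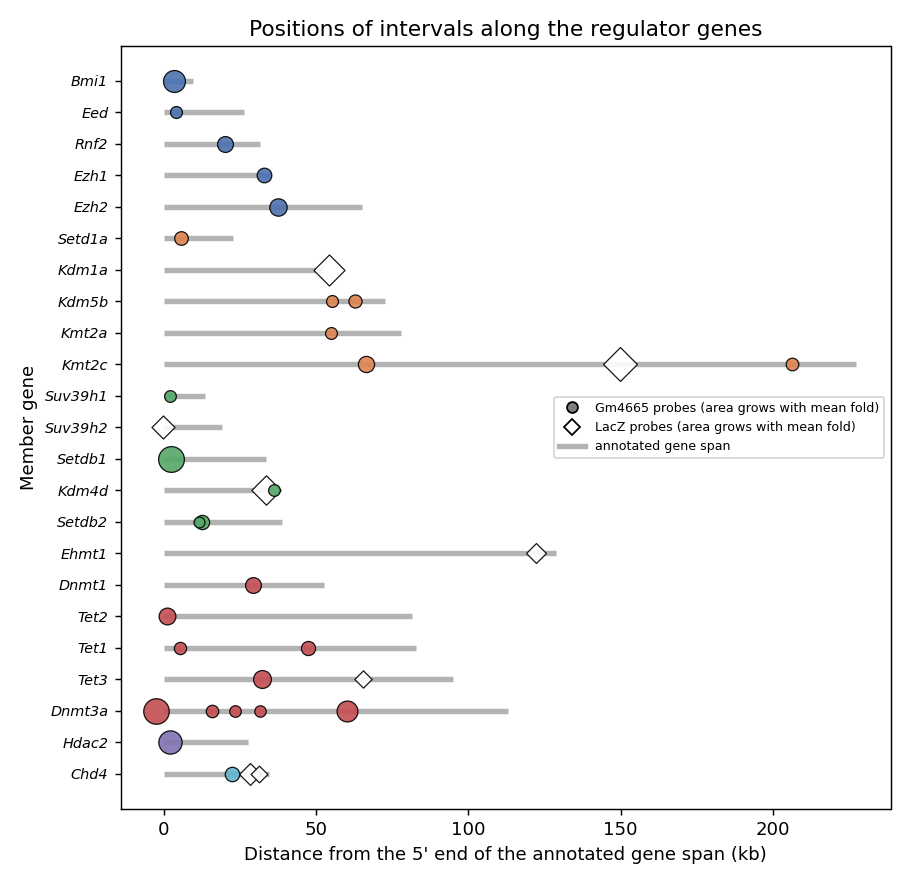
Position of intervals along the 23 genes with a known strand and an interval, as distance in kb from the 5′ end of the annotated gene, grey lines; filled circles are Gm4665 intervals and open diamonds LacZ intervals, with symbol area growing with mean fold. Symbols sit at interval midpoints. The nearer edges of strong Gm4665 intervals lie within 2 kb of the 5′ end at Setdb1, Dnmt3a and Hdac2, and 2753 bp inside it at Bmi1. No circle shares the position of a diamond, the closest pair of intervals being 1528 bp apart, edge to edge, at Kdm4d.

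With LacZ probes, replicate 1 had the highest fold at all 8 intervals, as in most of that list. Kmt2c had 67.9, 13.7 and 18.7 from 25348447 to 25349964 on chromosome 5 (mean 33.4 ± 29.9, SD, n = 3), where the mean without replicate 1 was 16.2. Kdm1a had 50.5, 12.0 and 21.0 on chromosome 4 from 136548120 to 136549178, 1355 bp past its 3′ end and inside the neighbouring gene Luzp1 (mean 27.8 ± 20.2, SD, n = 3), where the mean without replicate 1 was 16.5. These were the 2 intervals in the highest 10% of the LacZ list, at 4.55% of the 44 genes against 2.23% of protein-coding genes. With replicate 1 left out of the whole list, they were higher than 84.6% and 85.2% of it, so their place in the highest 10% rested on that replicate.

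Kdm4d had LacZ folds of 37.8, 15.5 and 20.8 from 14466200 to 14467485 (mean 24.7 ± 11.7, SD, n = 3). This control interval lay 1528 bp from the weak Gm4665 interval of the same gene. Suv39h2 had 24.1, 6.05 and 13.3 on chromosome 2 from 3474812 to 3475646, over the promoter window shown above (mean 14.5 ± 9.08, SD, n = 3). Ehmt1 had 15.3, 6.04 and 9.80 and Tet3 10.5, 5.91 and 5.77. Chd4 had 2, with means of 12.8 ± 7.13 and 6.82 ± 2.23 (SD, n = 3 each). By class, LacZ intervals lay at 2 of 7 H3K4, 3 of 8 H3K9, 1 of 8 DNA methylation and 1 of 3 remodeller genes. The other classes had none, and 16.9% of protein-coding genes had one. Per length of window these 4 classes had 3.68, 9.18, 1.86 and 10.7 LacZ intervals per Mb, against 4.57 at all protein-coding genes. Within 2 kb of a gene end there were LacZ intervals at 2 of 44 genes, 4.55%, against 4.78% of protein-coding genes. Of the 36 Gm4665 intervals, 0 overlapped a LacZ interval, against 0.889% of all 38711, a share too low for 36 intervals to show a difference.

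**Figure D4:**
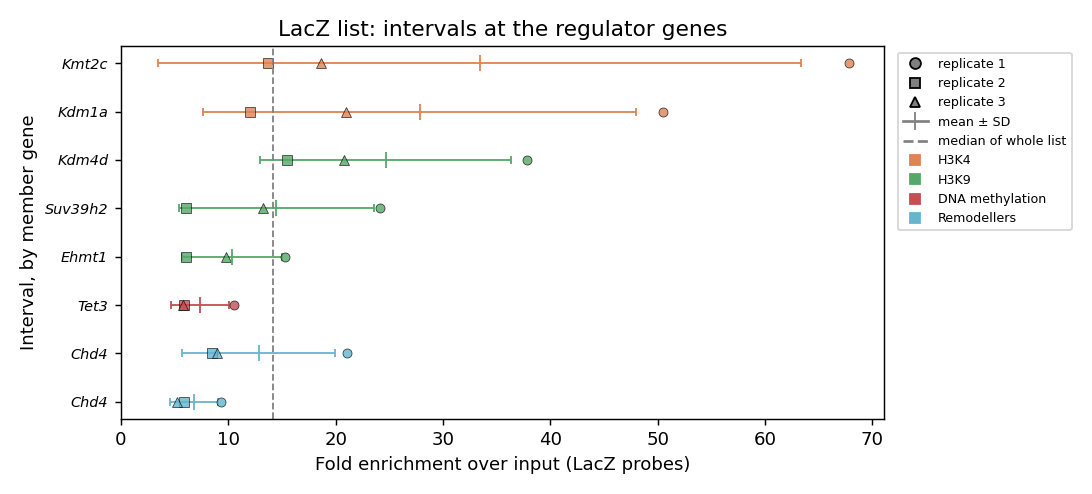
Fold enrichment over input, horizontal axis, of the 8 LacZ intervals at 7 regulator genes, with the same symbols as for the Gm4665 probes; the dashed line is the median mean fold of the LacZ list, 14.1. Circles, replicate 1, lie to the right of squares and triangles at each interval.

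Several strong intervals lay just beyond the 2 kb flanks. In the Gm4665 list, the intervals within the flanks were at Rad21 and Dnmt3a, 1360 and 1507 bp from the gene, with mean folds of 18.9 and 38.2. The nearest Gm4665 intervals outside the flanks were at Kdm6b and Ezh2, 2077 and 2321 bp from the gene, with 9.85 ± 3.39 and 5.21 ± 0.692 (SD, n = 3 each). Hdac1, whose own intervals were weak, had one with 44.9, 35.4 and 45.9 at 3423 bp (mean 42.1 ± 5.76, SD, n = 3), a mean above the 41.0 at Kdm6b, with replicate ranges that overlap. Ezh1 had one with a mean of 37.6 ± 9.37 at 6791 bp, and Kdm4d one with 31.0 ± 8.96 at 2770 bp (SD, n = 3 each). A LacZ interval with a mean of 8.98 ± 3.97 (SD, n = 3) lay 501 bp from this Ezh1 interval. Another LacZ interval, with a mean of 12.6 ± 2.80 (SD, n = 3), lay 2258 bp from Dnmt1.

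Smc3, which encodes a cohesin ring subunit, had no interval within 2 kb, but 2 Gm4665 intervals and 1 LacZ interval within 10 kb. On the 5′ side, a Gm4665 interval from 53596192 to 53597399 on chromosome 19 had folds of 16.7, 22.4 and 21.8 (mean 20.3 ± 3.18, SD, n = 3). A LacZ interval from 53596913 to 53598157 had 34.4, 18.5 and 18.7 (mean 23.9 ± 9.13, SD, n = 3) and shared 487 bp with it. This was the only place within 10 kb of the 44 genes, outside the 2 kb flanks, where intervals of both lists overlapped.

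Other genes of the same pathways gave a lower share. Of 110 further regulators, listed by class with earlier results known, 109 matched a RefSeq symbol and 49 (45.0%) had a Gm4665 interval, against 39.3% of protein-coding genes. LacZ intervals lay at 20 (18.3%), against 16.9%, and Gm4665 intervals within 2 kb of a gene end at 12 (11.0%), against 14.2%. Per length of window there were 11.4 Gm4665 intervals per Mb. By class the genes with a Gm4665 interval were 10 of 24 for Polycomb, 2 of 13 for H3K4, 5 of 10 for H3K9, 4 of 5 for H3K36, 5 of 9 for DNA methylation, 6 of 18 for deacetylases and their corepressors, 6 of 11 for cohesin and 11 of 19 for remodellers.

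The strongest interval of all these was at Arid2, a SWI/SNF subunit gene, with folds of 54.2, 36.2 and 50.2 (mean 46.9 ± 9.43, SD, n = 3). Hdac4, a class II deacetylase gene, had 38.8 ± 6.42, and Cbx1, which encodes a heterochromatin protein, had 31.7 ± 9.10 (SD, n = 3 each). Pds5a, a cohesin regulator, had 30.1 ± 6.48, and Zfp57, a zinc finger gene that protects imprinted methylation, had 30.0 ± 6.47 (SD, n = 3 each). Kdm2b, a CpG island binding subunit of a Polycomb complex, had 27.4 ± 4.84, Setd1b had 25.6 ± 8.01 and the H3K36 methyltransferase gene Nsd3 had 16.7 ± 3.66 (SD, n = 3 each).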

How the data were processed

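The members, their classes and the other gene lists were chosen with earlier results of these data known, so no test was run over them and all counts are descriptions. Each deposited peak list, made with MACS2 per the file names, holds intervals and, per the file headers, 1 linear fold over input for each of 3 replicates. The deposited pileup is the coverage signal at an interval's summit, in a replicate left unnamed. Not given in the sources used here are the MACS2 version and settings, the aligner, the library depths and how the authors joined replicates. Coordinates are 1-based on mm10, the build in the submitters' processing notes.

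Repeated intervals (649 rows with Gm4665 probes, 165 with LacZ probes) were joined by the highest fold, and intervals outside chromosomes 1 to 19, X and Y (116 and 25) were left out. Genes came from a RefSeq table of GRCm38.p6, from which 340 entries that start below 3 Mb on chromosomes other than Y were dropped. An interval belonged to a gene when it overlapped the gene with 2 kb flanks by 1 bp. Strand and start sites came from RefSeq promoter windows, listed for 38 of 44 members. Every member with an interval at a gene end was to be named, and elsewhere the strongest of each class and any in the highest 10% of its list; all others were then named too. Calculations used Python 3.11.15 and pandas 2.3.3, and the overlap step was tested on simulated data.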

Additional observations from a re-analysis of the deposited data

How the results depend on the processing

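The count of genes with a Gm4665 interval, 25 (39.3% of protein-coding genes), was 24 without flanks (35.0%) and 29 with 10 kb flanks (53.1%). It was 25 by interval midpoint (38.6%), with every replicate's fold at 4 or more (38.3%) and without intervals that overlap LacZ intervals (39.1%). It was 9 with every replicate's fold at 10 or more (20.2% of protein-coding genes), 9 within 2 kb of gene ends alone (14.2%) and 8 when the list was reduced to as many of its strongest intervals as the LacZ list holds (15.4%), settings that keep fewer intervals or bases. The LacZ count of 7 (16.9%) was 11 with 10 kb flanks (22.4%), 3 with every replicate's fold at 10 or more (6.67%) and 2 at gene ends alone (4.78%), and 6 or 7 otherwise (15.4% to 16.7%). The median of the mean folds at Gm4665 intervals, 9.25, ranged from 9.22 to 9.93 without each replicate in turn, and that at LacZ intervals, 13.7, from 9.19 to 16.9. All 44 single intervals moved by less than their SD with a geometric mean and with folds divided by each replicate's list median, an alternative chosen after seeing the data. A geometric mean stays within the SD unless a replicate is far below the others, so that setting says little about stability. Leaving out 1 of 3 replicates cannot move a mean by more than its SD, and joining repeated rows by the mean touched none of these intervals, so neither bears on their stability. Counts of genes were not recomputed without a replicate, because the replicates of a list share their intervals. No paired analysis was possible because the counts and folds come from no test between groups: the lists were normalized separately. Weak intervals rest on low coverage, and LacZ signal under the Gm4665 intervals was not measured.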
